A study of Mus musculus with 4 samples.

Results

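The splicing factors and hnRNP proteins described here are the genes whose probe sets carry a single symbol beginning with Hnrnp, Srsf, Sf3, Snrp, Prpf, U2af, Sfpq, Nono, Matr3 or Rbm followed by a digit. The rule found 95 probe sets of 67 genes, among 12422 non-control probe sets and 8251 named genes on the array. One of the 67 is a pseudogene by its symbol, Snrp1c-ps2, and is kept as the rule has it. The study asked how the synthetic glucocorticoid dexamethasone changes double-positive thymocytes, the CD4+CD8+ stage of T cell development that glucocorticoids can kill. Thymocytes of female C3H/HeN mice, 4 weeks old, were bead-sorted and cultured for 3 h at 5.0E+06 cells per ml, 3 ml per well. One group received medium with 0.1% PBS and the other 1e-07 M dexamethasone in PBS, with 2 arrays each. The series calls these technical extracts, so p-values measure only the spread between extracts, and how many mice or wells lie behind them is not given.

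Pre-mRNA splicing removes introns in the spliceosome, which is built on each intron from small nuclear ribonucleoproteins (snRNPs), RNA-protein particles that recognise the splice sites and the branch point. SR proteins, rich in arginine-serine repeats, mostly help exons to be recognised, while heterogeneous nuclear ribonucleoproteins (hnRNPs) coat nascent RNA and often oppose that recognition. T cells use both families to switch exons, as in the CD45 gene Ptprc, whose variable exons are skipped under the influence of Hnrnpl and Hnrnpll.

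Values are MAS5 signals, linear intensities that summarise the probes of a probe set and are scaled to a common level on each array. Differences are given as dexamethasone minus medium in log2(signal + 1). The limma adjusted p is Benjamini-Hochberg corrected over all 5582 genes tested, and a gene is said to rise or fall only where it lies under 0.05. Each gene was represented by its brightest probe set. Of the 67 genes, 65 passed the filter on dim signals, and Prpf39 and Rbm22 did not. Signals at or under 14, the highest value of 19 probe sets for bacterial and yeast transcripts, are treated as background.

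Median signals of the 4 arrays were 21.1 to 22.8. Marker lists are given as the sum over the genes on the array. Of 15 markers of the double-positive stage, 11 were on the array and all 11 lay above background. Their summed signal was 14705 to 15031 in medium and 14243 to 15144 with dexamethasone. Of these markers 2 fell and 0 rose. Ptcra (means of 86.9 and 48.25), Cd8b1 (2065 and 1637), Cd3e and Cd3g were lower without overlap. Rag1 (2114 and 2638) and Rag2 were higher without overlap. Of 9 B cell markers measured, 8 lay above background, with a sum of 1927 to 1932 in medium and 2366 to 2368 with dexamethasone. Of these 1 rose, Ighm, from a mean of 1270 to 1750.2, while Cd74 was lower without overlap (388 and 326) and Cd22 stayed at 2.6 or less. Cd79b, Ms4a1 and Pax5 were higher without overlap (means of 87.35 and 94.1, 18 and 24.05, 13.85 and 20.9). Blk, Cd79a and Ly6d overlapped. Of 7 mature single-positive markers 5 lay above background, with a sum of 236 to 280 in medium and 300.2 to 325 with dexamethasone. There too 1 rose, Il7r, from 53.7 to 143, while Cd5 was lower without overlap (60.3 and 42.1). Ccr7, Klf2 and Itgae overlapped with lower means (71.9 and 67.1, 40.8 and 31.5, 19.7 and 18.6). Of 10 epithelial and stromal markers 4 lay above background, with sums of 397 to 422 and 326 to 336. Of these 1 fell, Cldn4, from 207 to 92.6, while Col1a1 was higher without overlap (17.5 and 35.9). Of 10 myeloid and dendritic markers 4 lay above background (sum 103 to 121 over all arrays), and of 4 erythroid markers 2 (103 to 145). On the medium arrays the actin control gave 3′ to 5′ ratios, which climb as RNA degrades, of 1.15 and 1.06. On the dexamethasone arrays they were 1.40 and 1.24. The same ratio of the Gapdh control overlapped between groups, at 0.838 and 0.845 in medium and 0.904 and 0.823 with dexamethasone. The part of these shifts in the results below was not tested.

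After 3 h of dexamethasone, messages of the splicing machinery passed the test at a rate near that of all genes. Of 65 genes, 1 fell (Hnrnpab) and 1 rose (Matr3, whose direction turned with scaling to hybridization controls, below). That is 3.08% of the members, against 3.91% of all 5582 genes tested (1.88% rose and 2.02% fell), a share near the background. Unadjusted p-values under 0.05 were found for 11 of 65 members (16.9%) and for 19.9% of all genes. The groups did not overlap for 30 members, 15 higher and 15 lower (46.2%), against 50.5% of all genes, 24.7% higher and 25.7% lower. The median log2 difference of the members was 0.03 (-0.029 with each array centred on its median), and 0.00074 over all genes tested. In bulk RNA, a change in the number of cells of a type and a change in RNA per cell cannot be told apart.

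Differences of the members were small beside those of all genes. No member differed by more than 0.5 on the log2 scale (0 of 65), whereas 507 of 5582 genes (9.08%) did. The median absolute difference was 0.10 for members and 0.16 for all genes. For the members this was about the size of the distance between replicate arrays, 0.10 between the medium arrays and 0.091 between the dexamethasone arrays, although a difference of group means averages over 4 arrays. The members also gave brighter signals, with a median of 381 in medium against 98.9 for all genes, and bright probe sets are measured more tightly. The 95% limma interval lay wholly within 0.5 of zero for 52 of 65 members (80%) and for 50.2% of all genes. For the remaining members the interval reached past 0.5 in at least one direction.

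**Figure D1:**
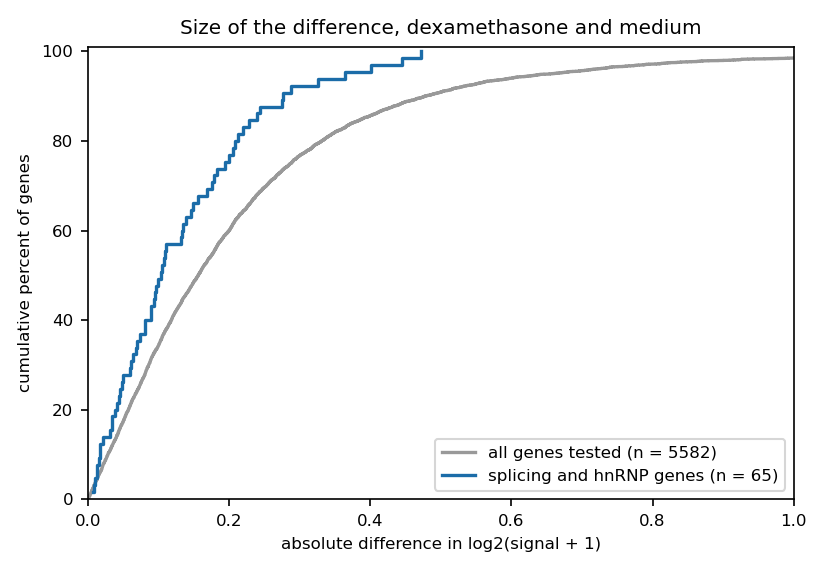
Cumulative percent of genes (vertical axis) by absolute difference in log2(signal + 1) between dexamethasone and medium (horizontal axis, drawn to 1). The curve of the 65 splicing and hnRNP genes ends below 0.5, while 9.08% of all 5582 genes lie beyond that value.

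These counts depend on the array scaling and on every array. The 9 hybridization controls, probe sets for spiked-in bacterial and phage RNA, were 1.37-fold brighter on the dexamethasone arrays. Whether these controls follow the amount of RNA per cell was not tested. Scaling to them moved the median of all genes to -0.46 and that of the members to -0.43. With that scaling 31 of 65 members fell (47.7%) and 0 rose, beside 45.7% of all genes, 2512 falls and 41 rises. Centring each array on its median left the member calls at 1 rise and 1 fall, with 92 rises and 162 falls over all genes in place of 105 and 113. Leaving out any one of the 4 arrays left 0 members past the threshold and 32 to 78 genes in all.

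The hnRNP proteins were represented by 16 genes, of which 1 fell, 0 rose, and 8 were higher and 8 lower. Hnrnpab encodes an hnRNP of the A/B type that binds AU-rich and related sequences in RNA. It read 453 and 425 on the medium arrays, and 319 and 313 with dexamethasone. Both dexamethasone arrays lay below both medium arrays, and the distance between groups was several times that within them. The means were 439 ± 20.2 and 316 ± 4.31 (SD, n = 2), a log2 difference of -0.47 ± 0.07 (SE, limma adjusted p = 0.0231). A dimmer Hnrnpab probe set read 23.7 and 23.6 in medium and 19.9 and 18.0 with dexamethasone, a log2 difference of -0.31 that did not pass in the fit of probe sets (limma adjusted p = 0.484). The Hnrnpab call was kept in 10 of 16 alternatives, with log2 differences from -0.93 to -0.39 and limma adjusted p from 5.19e-05 to 0.186. It was lost without any one array, without the variance trend and with the mean of its probe sets. With 1 array left out, which leaves 1 array in a group, the log2 difference of Hnrnpab was -0.52 to -0.42.

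The 250 bases before the Hnrnpab start in RefSeq (GRCm38.p6, chr11:51606882-51607131, minus strand) are shown because Hnrnpab is the only member to fall, and those of Srsf2 (chr11:116853095-116853344, minus strand) because its probe sets, described below, gave unlike readings. Capitals mark the CCAAT box (CCAAT), the GC box (GGGCGG) and the glucocorticoid receptor half-site (AGAACA, of which these stretches hold none), each searched on both strands.
Hnrnpab: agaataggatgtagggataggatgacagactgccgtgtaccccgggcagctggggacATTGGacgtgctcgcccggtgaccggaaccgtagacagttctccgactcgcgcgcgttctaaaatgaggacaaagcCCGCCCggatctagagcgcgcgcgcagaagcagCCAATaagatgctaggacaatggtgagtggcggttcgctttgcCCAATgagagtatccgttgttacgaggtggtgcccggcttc
Srsf2: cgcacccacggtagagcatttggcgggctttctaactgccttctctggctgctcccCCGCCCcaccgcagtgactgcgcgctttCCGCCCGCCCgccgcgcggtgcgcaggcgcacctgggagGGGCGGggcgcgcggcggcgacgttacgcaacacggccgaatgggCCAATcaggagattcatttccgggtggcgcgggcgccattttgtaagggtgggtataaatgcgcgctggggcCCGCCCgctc
The Hnrnpab stretch held 3 CCAAT boxes, 1 GC box and 0 half-sites, and the Srsf2 stretch 1 CCAAT box, 5 GC boxes, some of which overlap one another, and 0 half-sites. Over the 300-base windows of the members, 71 windows of 58 genes, 8.45% held a half-site, against 19.0% of all 32851 windows. The full palindromic glucocorticoid response element, this half-site and its reverse complement spaced by NNN, was in 0 member windows and in 3 of all windows (0.00913%). The CCAAT box was in 53.5% of member windows and 37.4% of all, and the GC box in 63.4% and 35.7%. Member windows had a median GC content of 60.3% and 25 CpG dinucleotides, against 52.7% and 7 over all windows, and windows of 1 gene can overlap. A match of these letters is a description and not a binding site.

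Besides Hnrnpab, 5 hnRNP genes were lower without overlap, and none of these 5 passed. In all, 6 of the 16 were lower and 2 higher without overlap, beside 25.7% and 24.7% of all genes. The median log2 difference of the 16 was 0.001. Hnrnpd encodes AUF1, which regulates the decay of AU-rich messages. It read 685 and 652 in medium and 596 and 561 with dexamethasone, a log2 difference of -0.21 ± 0.07 (limma adjusted p = 0.166). Hnrnpc, whose product binds uridine runs and packages nascent transcripts, read 133 and 130 in medium and 114 on both dexamethasone arrays (-0.21 ± 0.09, limma adjusted p = 0.270). Hnrnpu, a scaffold protein of nuclear RNA and chromatin, read 88.6 and 102 in medium and 72.4 and 85.1 with dexamethasone. Its groups did not overlap, but the log2 difference of -0.28 ± 0.13 had a 95% interval of -0.60 to 0.05 (limma adjusted p = 0.321). The other Hnrnpu probe set stayed at background, at 7.4 or less on all arrays. Hnrnph1 and Hnrnpk, both abundant RNA-binding regulators, had lower, non-overlapping signals with log2 differences of -0.09 and -0.06.

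On the upper side, Hnrnpa2b1, a reader and packager of nuclear RNA, read 1041 and 1064 in medium and 1295 and 1174 with dexamethasone. This was a log2 difference of 0.23 ± 0.07 that did not pass (limma adjusted p = 0.149). Hnrnpl and Hnrnpll, the regulators of the CD45 exons, differed by 0.10 ± 0.07 and 0.01 ± 0.07. The 95% interval was -0.07 to 0.27 for Hnrnpl and -0.16 to 0.18 for Hnrnpll. Hnrnpa1, a general silencer of exons, was dim and scattered, at 46.0 and 61.7 in medium and 36.1 and 55.7 with dexamethasone (-0.24 ± 0.25, limma adjusted p = 0.641). Hnrnpdl, Hnrnph2, Hnrnph3, Hnrnpm, Hnrnpr and Hnrnpul2 had log2 differences between -0.01 and 0.18 with overlapping groups.

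**Figure D2:**
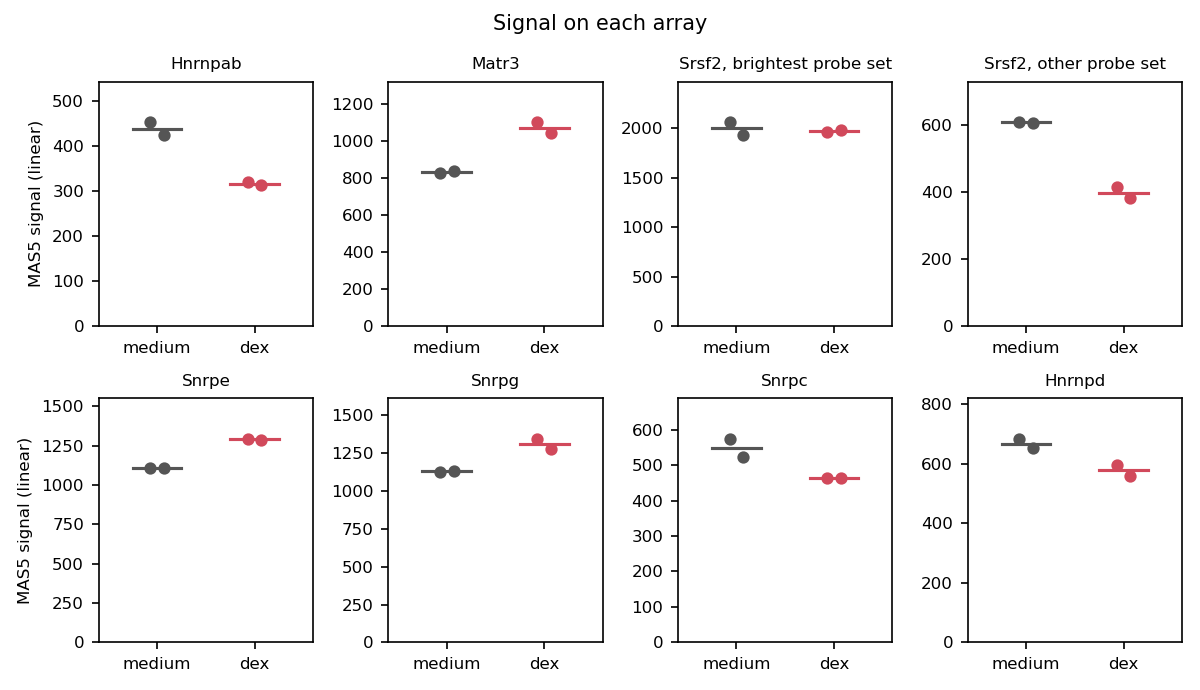
MAS5 signal (linear, from 0) on each array for 7 genes, with grey points for medium, red points for dexamethasone (dex) and a line at the mean of 2 arrays. Hnrnpab and the second Srsf2 probe set lie lower with dexamethasone, Matr3 higher (lower if scaled to the hybridization controls), and the brightest Srsf2 probe set overlaps between groups.

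Of the 9 SR protein genes, 0 passed in limma at the gene level, 0 had an unadjusted p under 0.05, and 6 were lower and 3 higher, with a median log2 difference of -0.07. Srsf1, the classical splicing factor ASF/SF2, read 137 and 161 in medium and 131 and 130 with dexamethasone. Srsf9 read 548 and 492 in medium and 466 and 452 with dexamethasone, a log2 difference of -0.18 ± 0.08 (limma adjusted p = 0.274). Both were lower without overlap, as was Srsf6, which differed by only -0.07. Srsf4 was higher without overlap, at 233 and 234 in medium and 261 and 252 with dexamethasone. Srsf3, Srsf5, Srsf10 and Srsf11 overlapped between groups, with log2 differences of 0.03, -0.07, 0.09 and -0.09.

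Srsf2 encodes SC35, an activator of exons and a mark of nuclear speckles. Its brightest probe set read 2062 and 1936 in medium and 1965 and 1983 with dexamethasone, overlapping groups with a log2 difference of -0.02 ± 0.06 (limma adjusted p = 0.906). Its other probe set read 609 and 608 in medium and 414 and 381 with dexamethasone. These groups lay far apart relative to their spread, and in the fit of 7453 probe sets, of which 3.15% passed, this probe set fell by 0.61 on the log2 scale (SE 0.07, limma adjusted p = 0.0112). It passed in 6 of 11 alternatives of that fit, with limma adjusted p from 4.57e-07 to 0.123, and was lost without any one array and without the variance trend. By the array's naming, both probe sets can bind similar transcripts of other genes.

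Whether the Srsf2 probe sets differ in response was tested on the gap between them within each array, in which array scaling cancels. The fit compared this gap between dexamethasone and medium, over all 1119 such pairs of the array. This test was chosen after the data were seen. The log2 difference of the second probe set was 0.60 below that of the brightest one (-0.60 ± 0.16, SE, limma adjusted p = 0.595). The 95% interval was -1.01 to -0.18. This pair did not pass, and 0 of all 1119 pairs passed (0%), with 88 at an unadjusted p under 0.05 (7.86%). Of the 19 member pairs, 2 had such an unadjusted p, those of Srsf2 and Rbm39.

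Probe sets of 1 gene can differ in the transcripts and the part of the message they read. Of 21 member genes with 2 or more probe sets, 16 had at least 2 that were tested and above background. In 9 of these 16 all such probe sets pointed the same way, and in 7 they did not (43.8%). Over the array 413 of 923 such genes (44.7%) had opposite signs, so the share among the members is near the background. Rbm39, a U2AF-related coactivator and splicing factor, had groups that did not overlap on either probe set, in opposite directions. The first Rbm39 probe set read 246 and 233 in medium and 248 and 284 with dexamethasone, and the second 211 and 235 in medium and 177 and 184 with dexamethasone. The log2 difference of the second was 0.45 below that of the first (-0.45 ± 0.17, limma adjusted p = 0.599). Hnrnpa2b1 showed the same crossing, its dimmer probe set reading 66.8 and 70.9 in medium and 58.8 and 58.5 with dexamethasone. The log2 difference of the dimmer probe set minus that of the brighter one, -0.46 ± 0.19, did not pass either (limma adjusted p = 0.599).

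The remaining genes with several probe sets are given by their values in the fit of probe sets, in which none of them passed. Srsf1 had 2 readings that were lower without overlap, -0.18 and -0.39 ± 0.13 (limma adjusted p = 0.189), a dim one of 0.29 ± 0.36 that overlapped, and another at background. Sf3b1 was at 0.01 on its brightest probe set and at -0.13 ± 0.08 on the other, which was lower without overlap. Nono was at -0.03 ± 0.09 on its other probe set, Hnrnpul2 at -0.01 ± 0.13 and 0.05 ± 0.09, and Srsf3 at 0.03 ± 0.10 and -0.01 ± 0.30. The brightest Nono probe set was at 0.19 ± 0.15. For Nono, Hnrnpul2 and Srsf3 every value was smaller than 2 times its SE.

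Readings of the same sign were those of Hnrnpdl (0.18 and 0.23), Sf3a2 (-0.01 and -0.14), Snrpb2 (0.29 and 0.37), Srsf4 (0.13 and 0.06) and Srsf10 (0.09 and 0.05). Each of these 10 values was smaller than 2 times its SE. The second probe sets of Prpf19, Rbm14 and Snrpb and the dimmest of Hnrnpdl were too dim to be tested, as were both of Prpf39.

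**Figure D3:**
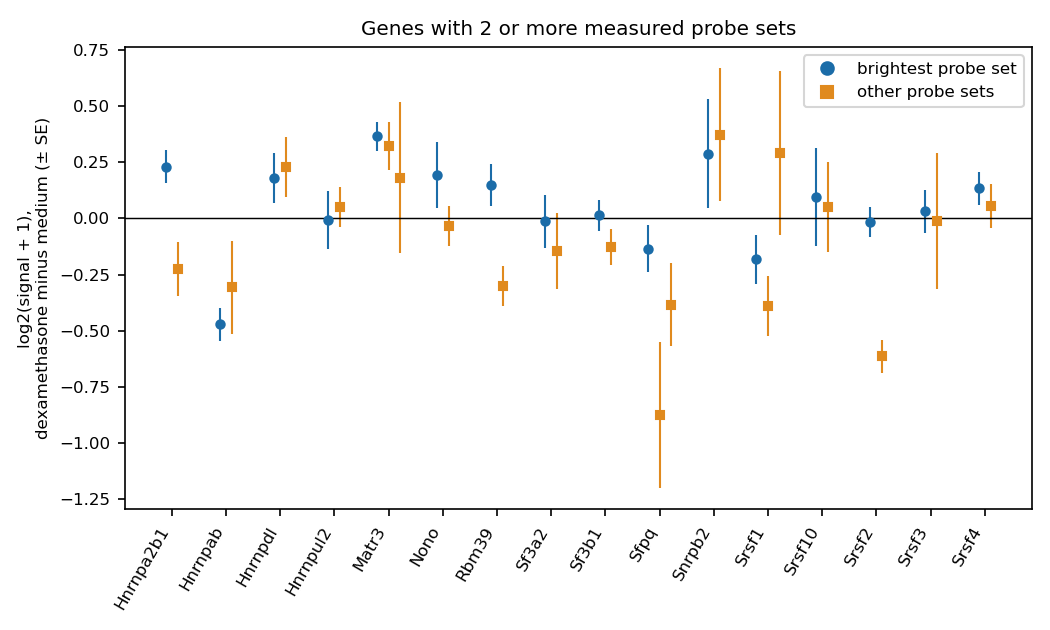
Log2 difference, dexamethasone minus medium, with its SE from the limma fit of probe sets, for the 16 member genes with at least 2 tested probe sets above background. Blue circles are the brightest probe set of each gene and orange squares the others, and those of Hnrnpa2b1 and Rbm39 lie on opposite sides of zero.

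The nuclear proteins Sfpq, Nono and Matr3, which bind RNA and one another in paraspeckles and at the nuclear matrix, included the only rise. Matr3, which encodes matrin 3, read 829 and 835 in medium and 1101 and 1044 with dexamethasone. Both dexamethasone arrays lay above both medium arrays. The means were 832 ± 4.53 and 1072 ± 40.5 (SD, n = 2), a log2 difference of 0.36 ± 0.06 (SE, limma adjusted p = 0.0325) that turned to -0.09 under the hybridization-control scaling. The probe set is of the family type, which can bind related transcripts. A second Matr3 probe set without that mark was dimmer and also higher without overlap, at 74.5 and 80.1 in medium and 98.6 and 95 with dexamethasone (0.32 ± 0.11, limma adjusted p = 0.185 in the fit of probe sets). The last Matr3 probe set, near background, read 11.5 and 13.4 in medium and 18.6 and 10.8 with dexamethasone. Its groups overlapped, with a log2 difference of 0.18 ± 0.34. The Matr3 call was kept in 8 of 16 alternatives, with limma adjusted p from 0.0213 to 0.603. It was lost without any one array, without the filter, without the trend, with the mean of probe sets and with scaling to the hybridization controls. With 1 array left out, which leaves 1 array in a group, the log2 difference of Matr3 was 0.33 to 0.40.

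Nono overlapped between groups, at 1136 and 971 in medium and 1388 and 1040 with dexamethasone (0.19 ± 0.15, limma adjusted p = 0.514). Sfpq, its usual partner, read 303 and 343 in medium and 274 and 315 with dexamethasone on its brightest probe set. Its log2 difference was -0.14 ± 0.10, also overlapping. The other 2 measured Sfpq probe sets were lower without overlap, with log2 differences of -0.38 and -0.88, and neither passed (limma adjusted p = 0.332 and 0.218 in the fit of probe sets). The larger value came from a family probe set that read 33.1 on one dexamethasone array and 70.6 on the other. The remaining Sfpq probe sets stayed at background, at 6.6 or less on all arrays, and were not tested.

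The Snrp genes encode the proteins of the snRNPs, and 8 were tested, with 6 higher, 2 lower and 0 past the limma threshold. Of the 8, 3 had an unadjusted limma p under 0.05, beside 19.9% of all genes and 16.9% of the 65 members. Snrpe and Snrpg encode small Sm proteins of the ring around the snRNA. Snrpe read 1108 on both medium arrays, and 1294 and 1286 with dexamethasone. Both groups were tight and lay apart. Its log2 difference was 0.22 ± 0.06 (limma adjusted p = 0.103). Snrpg read 1128 and 1134 in medium and 1345 and 1277 with dexamethasone, a log2 difference of 0.21 ± 0.06 (limma adjusted p = 0.128). Scaled to the hybridization controls, both were at -0.24.

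Snrpc, the U1 snRNP protein that stabilises contact with the 5′ splice site, went the other way, at 574 and 522 in medium and 464 and 464 with dexamethasone (-0.24 ± 0.07, limma adjusted p = 0.144). Snrpb, another Sm protein, overlapped at 2919 and 2579 in medium and 3106 and 2813 with dexamethasone (0.11 ± 0.09, limma adjusted p = 0.545). Snrpd3 differed by 0.08, the U2 protein Snrpa1 by 0.09 and the U2 protein Snrpb2, which was dim, by 0.29 ± 0.24 (limma adjusted p = 0.559), all with overlapping groups. The pseudogene Snrp1c-ps2 differed by -0.04.

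The genes of the U2 snRNP (Sf3a and Sf3b subunits) and of U2AF, which together recognise the branch point and the 3′ splice site, showed little difference. Of 11 genes tested, 0 passed in limma and 0 had an unadjusted p under 0.05, and all log2 differences lay between -0.17 and 0.16. Sf3b1, the branch-point subunit mutated in blood cancers, read 391 and 381 in medium and 395 and 384 with dexamethasone, with a 95% interval of -0.15 to 0.18. U2af2, the large subunit that binds the polypyrimidine tract, read 1845 and 1635 in medium and 2054 and 1806 with dexamethasone and overlapped (0.15 ± 0.09, limma adjusted p = 0.427). U2af1, the small subunit that contacts the AG, was higher without overlap, at 421 and 413 in medium and 450 and 448 with dexamethasone (0.10 ± 0.06, limma adjusted p = 0.426). Sf3b3 and Sf3b6 were higher and Sf3b5 lower without overlap, with log2 differences of 0.14, 0.16 and -0.13. Sf3a2, a subunit that helps U2 to bind the branch point and one of the brightest members, read 1466 and 1186 in medium and 1229 and 1389 with dexamethasone (-0.01 ± 0.11, limma adjusted p = 0.965). Sf3a1, Sf3a2, Sf3a3, Sf3b2 and U2af1l4 overlapped.

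The Prp factors, most of which belong to the tri-snRNP and the catalytic spliceosome, differed by a median of 0.046 in absolute log2 terms. Of 8 genes on the array 7 were tested, 0 passed in limma, 0 had an unadjusted p under 0.05, and log2 differences ran from -0.05 to 0.11. Prpf8, the scaffold of the catalytic core, read 665 and 682 in medium and 706 and 749 with dexamethasone. Prpf6, which bridges the snRNPs of the tri-snRNP, read 531 and 520 in medium and 557 and 567 with dexamethasone. Both were higher without overlap, by 0.11 ± 0.07 and 0.10 ± 0.06. Prpf38b was lower without overlap by 0.05, and Prpf4b, Prpf19, Prpf31 and Prpf38a overlapped. Prpf39 was listed at 15.2 or less on all arrays.

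The Rbm genes share an RNA-recognition motif and little else in function, and 11 of 12 were tested, with 0 past the limma threshold. Of the 11, 4 had an unadjusted limma p under 0.05, beside 19.9% of all genes and 16.9% of the 65 members. Rbm38, which regulates the stability and splicing of messages including those of the p53 pathway, read 701 and 751 in medium and 562 and 640 with dexamethasone (-0.27 ± 0.08, limma adjusted p = 0.146). Rbm6 read 41.3 and 46.2 in medium and 31.6 and 34.1 with dexamethasone (-0.40 ± 0.16, limma adjusted p = 0.233). Rbm4b read 261 and 250 in medium and 221 and 224 with dexamethasone. All 3 were lower without overlap.

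Rbm15, which guides the methylation of adenosine in RNA, had the largest positive difference among the members, at 50.5 and 61.8 in medium and 70.8 and 82.5 with dexamethasone (0.45 ± 0.15, limma adjusted p = 0.180). Rbm25 was at 27.1 and 32.0 in medium and 38.4 and 36.0 with dexamethasone. Its log2 difference of 0.33 ± 0.18 was small against its error (limma adjusted p = 0.366). Rbm8a, the Y14 subunit of the exon junction complex, was higher without overlap by 0.10. Rbm14, Rbm17, Rbm18 and Rbm42 overlapped, with log2 differences from -0.04 to 0.06. Rbm22 was listed at 2.0 or less on all arrays.

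**Figure D4:**
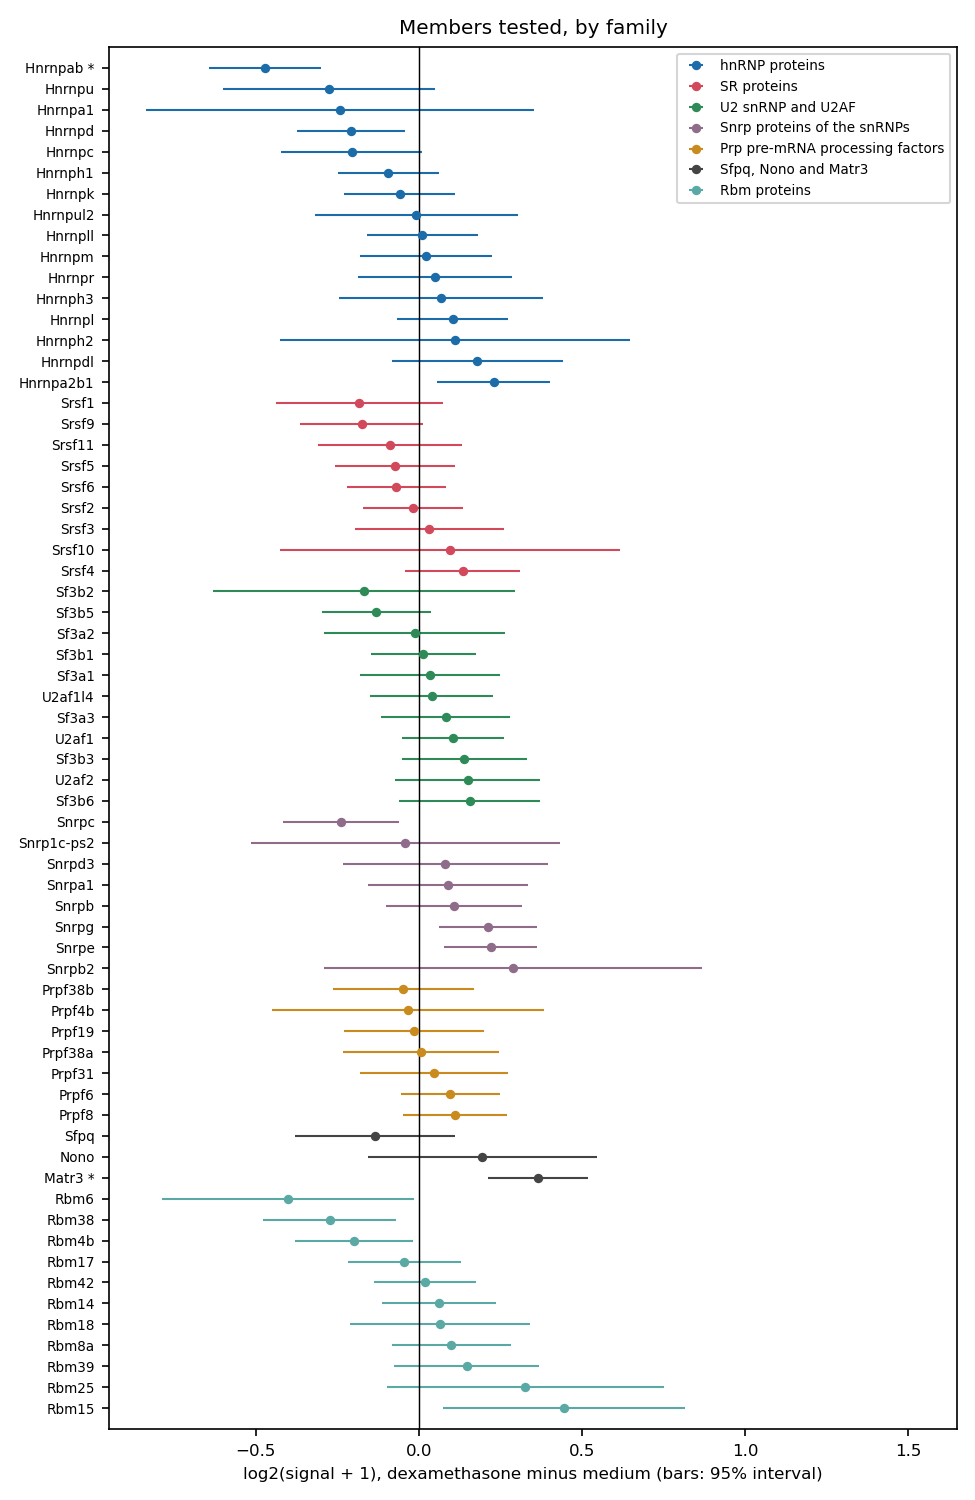
Log2 difference, dexamethasone minus medium, with its 95% limma interval for the 65 tested members, coloured by family, and an asterisk on the 2 that passed. The intervals are centred between -0.47 and 0.45, and those of the U2 snRNP and U2AF genes and of the Prp factors all include zero.

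Of 203 other gene symbols of splicing and RNA processing, listed by function, 142 were on the array and 131 were tested. A few of the 203 are alternative names of a gene also listed. In limma 0 of the 131 passed, and 24 had an unadjusted p under 0.05, beside 1111 of all 5582 genes (19.9%). Their median log2 difference was 0.0021, with 67 higher and 64 lower. Of 40 core spliceosome genes outside the rule, 7 had an unadjusted p under 0.05, and the largest log2 differences were 0.42 for Luc7l3 and 0.38 for Cwc22. Of 38 other regulators of alternative splicing 6 did, and the largest were 1.08 ± 0.64 for Pcbp4, near background, and -0.42 for Celf1. Of 12 genes of snRNP assembly and import 4 did. The largest differences were those of Wdr77 (-0.53), a partner of the arginine methyltransferase Prmt5, and Tgs1 (-0.44), which methylates the cap of snRNAs.

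Of 16 kinases and phosphatases of SR proteins 4 had an unadjusted p under 0.05, the largest differences being -0.28 for Akt1 and 0.28 ± 0.06 for Clk1, an SR protein kinase (limma adjusted p = 0.0742). The exon junction and export list had 1 of 9, with Smg5 at -0.48 and Ran at 0.19. The 3′ end processing list had 2 of 16, with Pcf11 at 0.70 ± 0.15 (limma adjusted p = 0.0623), a factor that couples cleavage to transcription termination, and Rbbp6 at 0.33. With the stricter filter 2 of 120 list genes rose, Pcf11 and the splicing activator Tra2b, while 290 of all 3933 genes changed (7.37%). With a replicate block 3 of 131 rose, Pcf11, Clk1 and Strap, while 353 of all 5582 genes changed (6.32%). Tra2b and Strap were named after their values were seen. Under the hybridization-control scaling 64 of the 131 fell and 0 rose, while 2512 of all 5582 genes fell and 41 rose (45.7% changed).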

How the data were processed

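The authors deposited linear signal intensities. The submitters' processing notes name MAS5, and its version and parameters are not given in the sources used here. After trimming 2% of probe sets at either end, array means were 100.062 to 100.067, a shared global scale. Of 12488 probe sets 66 were controls. In the platform annotation 10833 named 1 gene, 396 several and 1193 none. All 67 member genes matched the RefSeq gene table by gene ID, and 0 were renamed.

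Signals were used as log2(signal + 1), a scale that understates the change of dim genes. The brightest probe set stood for a gene, and genes at or under the 40th percentile of mean log2 signal over all probe sets were left out. Groups were compared two-sided on all 4 arrays with lmFit and eBayes (limma 3.58.1, R 4.3.3), with a variance trend. An exact permutation of 2 against 2 arrays cannot go below p = 0.333 and was not used. The number of arrays limits the precision.

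The members, lists and alternatives were chosen with earlier results of these data known. Full statistics are given for members that passed, the 8 largest differences each way and the 6 brightest, and for some others. Members with several probe sets are described by all of them. Of each other list the 2 largest differences are named. Alternatives were 3 scalings, pseudocounts of 8 and 16, other filters, no trend, a replicate block, averaging a gene's probe sets, fitting each probe set separately and leaving out each array. Promoter windows (250 bases before to 50 after a start) are from RefSeq, GRCm38.p6. Of the 67 members, 58 had one.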

Additional observations from a re-analysis of the deposited data

How the results depend on the processing

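The count of changed genes was 218, of changed members 2, of changed genes in the other lists 0 and the member median 0.03. Scaling to the hybridization controls gave 2553, 31, 64 and -0.43. No filter gave 116 genes and 1 member, no variance trend 19 genes and 0 members, the stricter filter 2 genes of the other lists, and the mean of probe sets 0 members and 1 gene of the other lists (Kpnb1). Centring on array medians gave a member median of -0.029. Leaving out one array gave 32 to 78 genes, 0 members in each case and a member median of -0.0025 to 0.033, where the lone array of a group is assumed to vary like the other group. Under the other alternatives, apart from the replicate block, 173 (mean of probe sets) to 290 (stricter filter) genes passed, within 1.5 times 218. Replicate numbers did not pair the arrays by the labels, and same-numbered arrays deviated together only weakly (r = 0.072 across genes, 2 pairs). With a replicate block 353 genes and 3 genes of the other lists passed, and the member calls stayed at Hnrnpab and Matr3.

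Among 20 named members, directions reversed as follows. With scaling to the hybridization controls the log2 difference was -0.23 for Hnrnpa2b1, -0.092 for Matr3, -0.26 for Nono, -0.012 for Rbm15, -0.13 for Rbm25, -0.35 for Snrpb, -0.17 for Snrpb2, -0.24 for Snrpe, -0.24 for Snrpg and -0.31 for U2af2, a scaling that by construction shifts every gene of an array equally. Quantile normalization gave -0.074 for Snrpb. The mean of probe sets gave 0.60 for Hnrnpu, whose other probe set is at background. Leaving out each array in turn gave -0.17 to 0.14 for Sf3a2, -0.063 to 0.028 for Srsf2, -0.55 to 0.063 for Hnrnpa1 and -0.014 to 0.40 for Nono. Srsf2 reversed without the first medium array, Hnrnpa1 and Nono without the first dexamethasone array, and Sf3a2 without either of these. Of the named members these 14 reversed at least once.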

Other observations

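A further 10 probe sets name a matching gene together with other symbols and were not counted as members. The Hnrnpa3 probe set shared with Gm6793 read 1083 and 1157 in medium and 1160 and 1271 with dexamethasone, without overlap. The probe set of Rbm3, a cold-inducible RNA-binding protein, shared with Rbm3-ps, read 1088 and 1089 in medium and 1266 and 1215 with dexamethasone, also without overlap, a log2 difference of 0.19. The probe set shared by Snrpd1 and Gm14277 read 44.3 and 39.1 in medium and 57 and 51.4 with dexamethasone, without overlap, a log2 difference of 0.37. One Hnrnpa1 probe set, shared with Hnrnpa1l2-ps2, was also higher without overlap (0.34). Lower without overlap were the dim probe set of Rbm14, Rbm4 and Gm21992 (-0.87, at 14.4 or less on all arrays) and that of Rbm10 and Gm15455 (-0.13). The other Hnrnpa1 probe set (-0.19), the other Hnrnpa3 probe set (-0.21), Snrpd2 with Gm5848 (-0.07) and Snrpa with Gm21559 and Gm5161 (0.07) overlapped between groups. None of the 10 was tested.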
